A study of Mus musculus with 2 samples.

Results

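Notch signalling genes were followed in livers of mice without MMP-14, a metalloproteinase anchored in the cell membrane. The 10 genes were chosen by name, with earlier results of these data known, out of 16390 named genes on the arrays. They comprise the 4 receptors Notch1, Notch2, Notch3 and Notch4, the 4 ligands Jag1, Jag2, Dll1 and Dll4, and the 2 target genes Hes1 and Hey1. Every one was read by 1 probe on each of 2 arrays. RNA of MMP-14 KO liver, labelled with Cy3, was hybridised in each case against RNA of wild-type liver, labelled with Cy5. The first array carried Dlk-positive cells sorted from fetal liver without the CD45, CD71 and Ter119 fractions (labelled E14, and E14.5 in the design text), with 3 livers and 100000 cells for each genotype. On the second was whole liver, called P1 in the labels and E18.5 in the design text, pooled from 2 livers of each genotype. It is called the P1 liver array here, after its label. The strain and the design of the knockout allele are not given in the sources used here. There was 1 array per comparison and no dye swap, so errors between animals are unknown, no test was possible, and dye and genotype effects cannot be told apart.

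Notch receptors are cell surface proteins that are cut when a ligand on a neighbouring cell binds. An ADAM protease makes the outer cut and gamma-secretase the inner one, and the freed intracellular domain joins the DNA-binding protein RBPJ and a Mastermind coactivator to switch on genes of the Hes and Hey families, which encode transcriptional repressors. In liver, Jag1 on cells around the portal vein and Notch2 in hepatoblasts are known for directing bile duct formation, while Notch1, Notch4 and Dll4 are prominent in endothelium and Notch3 in the mural cells of vessels. MMP-14 is itself known to cut Dll1 from the surface of stromal cells.

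The deposited intensities show that these are dim genes on both arrays. A channel was called detectable above the mean plus 2 SD of the blank spots, and each signal is also given as its distance from the blank mean in blank SDs, a measure of how far it stands above empty spots. Each ratio is a log2 value with the knockout on top. The main value comes from normexp background correction with an offset of 50 and loess normalisation, and the offset pulls the ratios of dim genes towards 0. The authors' deposited value is the ratio after subtraction of the blank mean, centred on the array median. It has neither the offset nor the loess step, and at these signals it is mostly larger in size and noisier. Between different probes of the same gene the SD of main values was 0.12 on the E14 Dlk+ array, with 0.23 on the P1 liver array, over 139 genes, and the SD of the authors' values was 0.29 and 0.48. That spread is technical and covers no animals.

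Mmp14 served as the check of the labels, with a knockout signal of 132 and a wild-type signal of 131 on the E14 Dlk+ array, where knockout readings exceeded wild-type ones by a median factor of 2.19. Its log2 ratio was -1.13 there. In P1 liver it was -1.30, with signals of 104 in the knockout and 161 in the wild type. The sorted cells had Dlk1 at 11869 in the knockout and 4971 in the wild-type channel. Of 15 endothelial markers, 10 were detectable in both channels of the E14 Dlk+ array, led by Egfl7 at 1068 in the knockout and 476 in the wild-type channel. Cdh5 and Sox17 were detectable in neither channel. On the P1 liver array all 15 lung epithelium markers were detectable in wild-type RNA, against 10 in knockout RNA, led by Sftpc at 187 in the knockout and 24038 in the wild-type channel.

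The promoters of a receptor, a ligand and a further target are shown because the receptor and the ligand are compared below with endothelial markers and the target with Hey1. Each sequence runs from 250 bases before to 50 bases after the RefSeq start of the gene (GRCm38.p6). Capitals mark TGGGAA, the core of the RBPJ motif, or CACGNG, a class C site of Hes and Hey proteins, on either strand.
Notch1 (chr2:26503773-26504072, minus strand): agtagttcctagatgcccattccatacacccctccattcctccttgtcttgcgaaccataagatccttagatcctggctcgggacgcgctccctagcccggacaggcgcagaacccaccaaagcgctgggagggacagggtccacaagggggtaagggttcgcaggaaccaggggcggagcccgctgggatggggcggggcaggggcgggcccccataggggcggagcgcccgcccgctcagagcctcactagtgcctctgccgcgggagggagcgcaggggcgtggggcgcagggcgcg
Dll4 (chr2:119325534-119325833, plus strand): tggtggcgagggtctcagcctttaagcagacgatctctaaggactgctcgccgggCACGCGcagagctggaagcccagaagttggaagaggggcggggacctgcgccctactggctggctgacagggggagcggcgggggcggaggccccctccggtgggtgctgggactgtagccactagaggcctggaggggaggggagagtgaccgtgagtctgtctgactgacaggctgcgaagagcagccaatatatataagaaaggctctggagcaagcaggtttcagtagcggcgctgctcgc
Hes5 (chr4:154960673-154960972, plus strand): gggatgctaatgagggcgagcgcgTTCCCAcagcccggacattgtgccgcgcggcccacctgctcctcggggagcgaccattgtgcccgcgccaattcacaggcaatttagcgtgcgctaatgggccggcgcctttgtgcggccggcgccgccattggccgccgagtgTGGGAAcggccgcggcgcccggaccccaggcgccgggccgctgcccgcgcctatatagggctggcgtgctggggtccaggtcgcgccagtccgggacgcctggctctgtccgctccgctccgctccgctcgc
The capitals in Dll4 are 1 CACGNG match, those in Hes5 are 2 TGGGAA matches, and Notch1 has neither. The targets Hes1 and Hey1 had no promoter in the RefSeq set used here, so they were not searched for either motif. The other 8 of the 10 genes, all receptors or ligands, had 9 sequences in all. TGGGAA stood in 0 of the 9, against 25.6% of all 32851 promoters of the same length of 300 bases. CACGNG stood in the promoters of 6 of the 8 genes (Dll1, Dll4, Jag1, Jag2, Notch2 and Notch3), against 27.5% of all promoters. A match is a description of these letters only.

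In the sorted E14 cells, the target gene Hes1 and the receptor Notch1 had the highest main ratios of the set, and no member was at least 1.5-fold higher or lower in knockout cells in those values. Hes1, which encodes a repressor that holds progenitor cells undifferentiated, had a signal of 531 in knockout and 173 in wild-type cells (probe M200001751), which are 203 and 132 blank SDs above the blank mean. Its log2 ratio was 0.38 and the authors' deposited value 0.43. Notch1, the receptor best known for arterial and blood cell fates, read 269.8 in knockout and 94.4 in wild-type cells (probe M300005379), with a log2 ratio of 0.35 and an authors' value of 0.51. These are the members furthest above the blanks on this array, and both main ratios exceed the SD of 0.12 between probes. Of all detectable genes, 1.20% had a higher main ratio than Hes1 and 1.59% a higher one than Notch1. In the authors' values those shares were 8.78% and 6.81%, and Jag1 rather than Hes1 or Notch1 had the highest value of the set. With the local background subtracted the highest was Jag2, at 0.96, and Hes1 stood at 0.26.

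Hey1, a Notch target of endothelial and other vessel cells, read 132 in knockout and 56.5 in wild-type E14 cells (probe M200006544). Its main ratio of 0.16 and the authors' value of 0.51 were both above 0. When each channel was moved by 1 blank SD, the blank-subtracted ratio of Hey1 ran from 0.35 to 0.67, that of Hes1 from 0.41 to 0.45 and that of Notch1 from 0.47 to 0.56. The sign held under this shift for these 3 genes. Hes1 and Notch1 stand so far above the blanks that a shift of 1 blank SD could not have changed theirs.

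The remaining receptors were near the blanks in E14 cells. Notch2, the receptor of bile duct formation, was not detectable, with signals of 80.9 in knockout and 42.2 in wild-type cells against thresholds of 85.1 and 44.3. Its probe (M300005826) was within 1 blank SD of the blank mean in both channels, so it gives no ratio. Notch3 (probe M300011370) read 104 in knockout and 50.1 in wild-type cells, with a main ratio of 0.02, and Notch4 (probe M200011763) read 100.7 and 48.0, with a main ratio of 0.04. Their authors' values were larger, 0.22 for Notch3 and 0.46 for Notch4. Moving the channels by 1 blank SD carried Notch3 from -0.10 to 0.54, across 0, and Notch4 from 0.06 to 0.89.

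All 4 ligands were detectable but dim in E14 cells, and their main ratios lay between -0.07 and 0.08. Jag1, the ligand of the portal tract, read 106 in knockout and 49.1 in wild-type cells (probe M300005550), with a main ratio of 0.08 and an authors' value of 0.55, the highest authors' value of the set. Jag2, a second ligand of the Jagged type, read 97.0 in knockout and 48.0 in wild-type cells (probe M200008472). Dll1, the ligand that MMP-14 can cut, read 128 in knockout and 62.1 in wild-type cells (probe M200002010), with a main ratio of -0.02 and an authors' value of -0.09. Dll4, the ligand of arterial endothelium and vessel tips, read 91.1 in knockout and 47.4 in wild-type cells (probe M300005577), with a main ratio of -0.07 and an authors' value of -0.32. The blank-scale ranges of Jag2, Dll1 and Dll4 crossed 0.

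Counted over the set, 0 of the 9 detectable members passed 1.5-fold upwards in E14 knockout cells, where 0.307% of all detectable genes did, and 0 passed it downwards, against 0.22%. In the authors' values the counts were likewise 0 and 0, against 5.38% and 1.22% of genes. The median of the 9 was 0.04 in main values, against 0.01 for all genes, and 0.43 in the authors' values, against 0.00. In the authors' values 7 of 9 lay above 0, against 50% of all genes, and in main values 6 of 9, against 53.1%. With median centring in place of loess the median of all genes moved to 0.28, and only Notch1 (0.70) and Hes1 (0.93) lay above it, while the other 7 lay below. Hey1, Jag1, Notch3 and Notch4 were thus higher or lower than the bulk of genes depending on the scaling.

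In whole liver labelled P1, 7 of the 8 members detectable in both channels had ratios below 0, that is, relatively less signal in the knockout, and Hey1 was the lowest. Hey1 read 117 in knockout and 146 in wild-type liver, which are 15.3 and 80.5 blank SDs above the blank mean. It was the only member whose knockout signal was below its wild-type signal before normalisation, an order seen in 4.12% of detectable genes. Its main log2 ratio was -0.95, or 1.93-fold lower, and the authors' deposited value was -1.95, or 3.87-fold lower. Of all detectable genes, 1.64% had a lower main ratio and 1.31% a lower authors' value. Hes1, the other target, read 140.1 in knockout and 117 in wild-type liver, with a main ratio of -0.31 and an authors' value of -0.70.

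**Figure D1:**
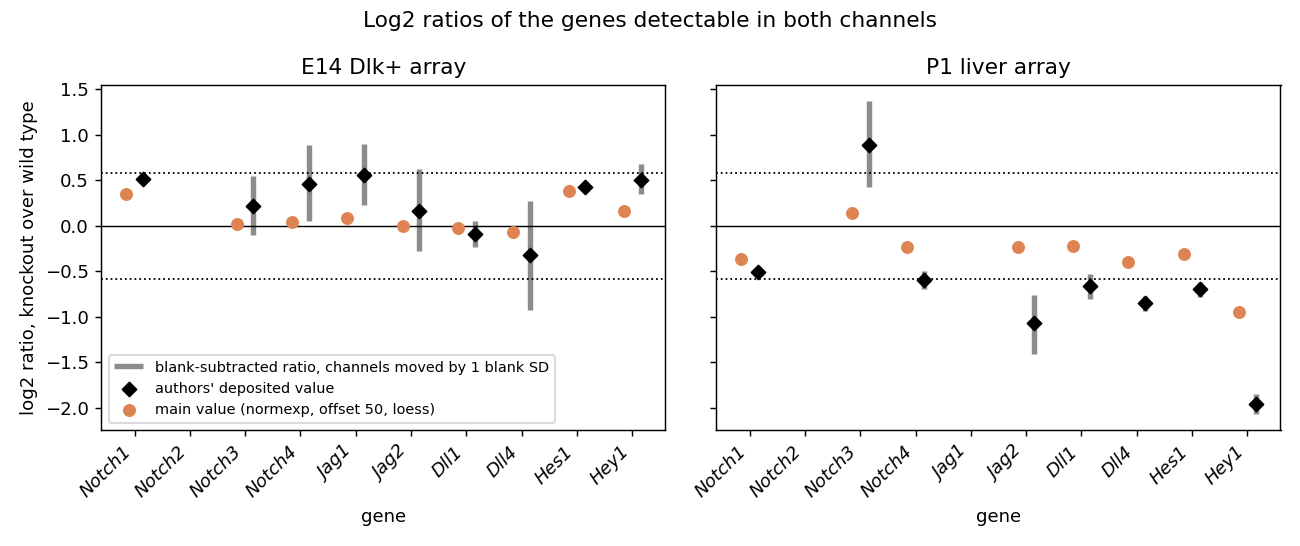
Log2 ratio of knockout over wild type for each gene with a detectable signal in each channel, E14 Dlk+ array at left and P1 liver array at right. Orange points are main values, black diamonds the authors' deposited values, grey bars the blank-subtracted ratio with each channel moved by 1 blank SD, and dotted lines 1.5-fold. Hey1 on the P1 liver array stands lowest, at -0.95 and -1.95, and Notch3 is the only member above 0 there.

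Among the receptors, 0 of the 3 with a ratio passed 1.5-fold in main values on the P1 liver array, with Notch1 and Notch4 below 0 and Notch3 above it. Of all detectable genes, 4.12% were at least 1.5-fold lower and 2.84% higher in those values. Notch1 read 249.96 in knockout and 224 in wild-type liver, with a main ratio of -0.37 and an authors' value of -0.51. Notch4, a receptor largely restricted to endothelium, read 132 in knockout and 103 in wild-type liver, with a main ratio of -0.23 and an authors' value of -0.59. With the local background used in normexp its ratio turned to 0.09, and to 0.29 with that background subtracted. Notch3 read 98.9 in knockout and 54.5 in wild-type liver, only 7.31 and 5.34 blank SDs above the blank mean. Its main ratio of 0.14 is below the SD between probes, and its authors' value was 0.89, with a blank-scale range from 0.43 to 1.37. Notch2 was again not detectable, at 84.3 in knockout and 49.4 in wild-type liver against thresholds of 87.0 and 50.5.

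The 3 ligands that gave a ratio in P1 liver also had values below 0, and 0 of them passed 1.5-fold in main values, against 3 in the authors' values. Of all genes, 4.12% were at least 1.5-fold lower in main values and 12.2% in the authors' values, whose SD between probes is 0.48 here. Dll4 read 136 in knockout and 119.99 in wild-type liver, with a main ratio of -0.39 and an authors' value of -0.85. Jag2 read 95.9 in knockout and 68.8 in wild-type liver, with a main ratio of -0.23 and an authors' value of -1.07. Dll1 read 118 in knockout and 89.0 in wild-type liver, with a main ratio of -0.22 and an authors' value of -0.66. The blank-scale ranges of these ligands stayed below 0, the widest being that of Jag2 from -1.41 to -0.76. Jag1 was detectable in wild-type liver only, at 86.2 in knockout and 56.3 in wild-type liver against thresholds of 87.0 and 50.5. Its normalised log2 levels, 5.87 in knockout and 6.03 in wild-type liver, lay closer together than the SD of 0.23 between probes, so no fold is given. In main values Dll4, Hes1 and Notch1 exceeded the SD of 0.23 between probes by little, Jag2 and Notch4 stood about at it and Dll1 just below it.

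Counted over the set, 1 of 8 members was at least 1.5-fold lower in the P1 knockout in main values, Hey1, where 4.12% of all detectable genes were, and 0 were at least 1.5-fold higher, against 2.84%. In the authors' values 6 of 8 were at least 1.5-fold lower, against 12.2% of all genes and 15.4% of the genes within the members' range of intensity, where 7.2% were at least 1.5-fold higher. Those 6 were Hey1, Jag2, Dll4, Hes1, Dll1 and Notch4, and Notch3 was 1 of 8 that was higher, against 11.9%. The median of the 8 was -0.27 in main values, against 0.00 for all genes, and -0.68 in the authors' values, against -0.01. Below 0 lay 7 of 8 on both scales, where 50.4% and 50.8% of all genes did. In whole liver, fewer cells of a type and less RNA per cell cannot be told apart. The 2 channels of this array also differed in lung markers, with Sftpc at 187 in the knockout and 24038 in the wild type. What RNA of lung cells adds to the ratios of the members was not tested.

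**Figure D2:**
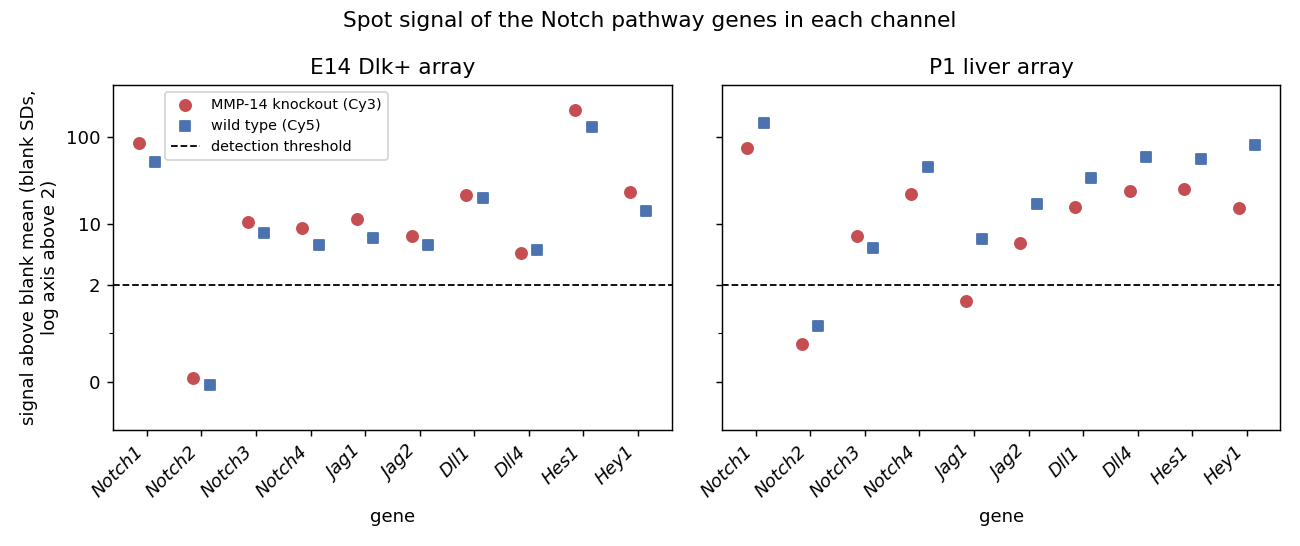
Signal of each gene in the knockout channel (red circles) and the wild-type channel (blue squares), in blank SDs above the mean of the blank spots, on an axis that is logarithmic above 2, before any normalisation between the dyes. The dashed line is the detection threshold. Notch2 lies below it on both arrays, Jag1 in the knockout channel of the P1 liver array, and Hey1 in P1 liver has its knockout point at 15.3 and its wild-type point at 80.5.

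Most markers of vessel cells were lower in the P1 knockout RNA in which Hey1, Dll4, Notch1 and Notch4 had ratios below 0. Of the 15 endothelial markers, 13 were detectable in knockout and 15 in wild-type liver. Their summed normalised signal, in which every gene carries the offset, was 4148 in knockout and 8034 in wild-type liver. Among the 13 detectable in both, 9 were at least 1.5-fold lower and 0 higher, with a median of -0.78, from Cldn5, a tight junction protein of endothelium, at -2.16 to the transcription factor gene Erg at 0.04. Cdh5 and Emcn were not detectable in the knockout channel. Arterial endothelial markers had a median of -0.45 over 6 genes, with 2 at least 1.5-fold lower, from Sema3g at -0.97 to the netrin receptor gene Unc5b at -0.01. Their summed signal was 609 in knockout and 849 in wild-type liver, and Gja5 was detectable in neither.

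Smooth muscle and pericyte markers had a median of -0.38 in P1 liver, with 3 of 8 at least 1.5-fold lower, from the smooth muscle actin gene Acta2 at -2.11 to the pericyte gene Rgs5 at -0.10. Cnn1 was not detectable in the knockout channel, and the summed signal was 768 in knockout and 1438 in wild-type liver. All 10 lung epithelium markers detectable in both channels were at least 1.5-fold lower, with a median of -4.83, from Sftpc at -7.85 to Abca3 at -0.83. The summed signal of the 15 lung markers was 1254 in knockout and 54828 in wild-type liver, and Scgb3a2, Cldn18, Sftpb, Nkx2-1 and Lamp3 were not detectable in the knockout channel. The part of the vessel, mural and lung markers in the Notch gene ratios of P1 liver was not tested.

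**Figure D3:**
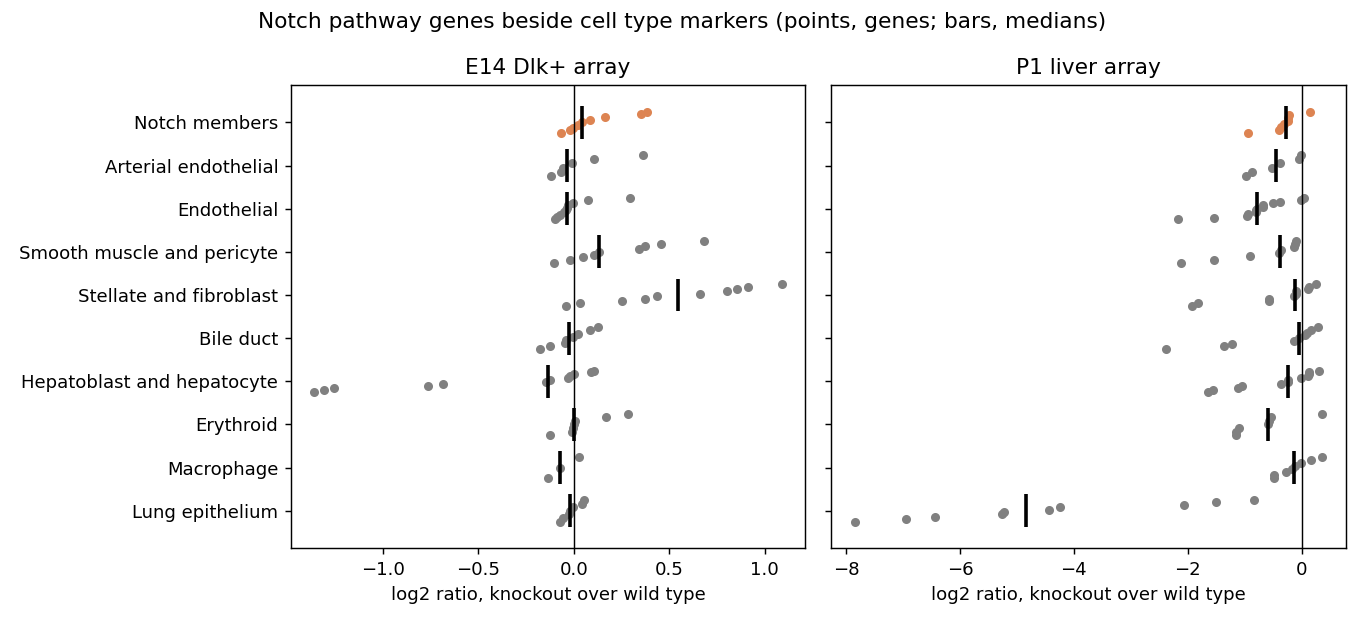
Main log2 ratios of the Notch pathway genes (orange) and of the markers of 9 cell types (grey) with both channels detectable, E14 Dlk+ array at left and P1 liver array at right with a wider axis. Each point is a gene and each bar a median. In P1 liver the median of the Notch genes is -0.27, between the endothelial median of -0.78 and the bile duct median of -0.05.

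Bile duct markers were examined because Jag1 and Notch2 are known for bile duct formation. In P1 liver they had a median of -0.05 over 9 genes, with 3 at least 1.5-fold lower and 0 higher, from Muc1 at -2.37 to the transcription factor gene Onecut1 at 0.29. The lower ones were Muc1, Aqp1 (-1.36) and Epcam (-1.23). Sox9, a transcription factor of bile duct precursors, stood at 0.17 and the matrix protein gene Spp1 at -0.13, while Krt19 was detectable in neither channel. Of the 9 bile duct markers with a ratio, 4 lay above 0 and 5 below. The summed signal of the bile duct markers was 3325 in knockout and 4343 in wild-type liver. Lung markers were also higher in the wild-type channel of this array, and their part in the bile duct ratios and sum was not tested. In the E14 cells the bile duct median was -0.02 over 8 genes, with 0 at least 1.5-fold changed, from Aqp1 at -0.18 to Onecut1 at 0.13.

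In the E14 cells the stromal markers stood beside the higher ratios of Hes1 and Notch1. Stellate and fibroblast markers had a median of 0.55, with 5 of 10 at least 1.5-fold higher, from Col1a1 at -0.04 to the collectin gene Colec10 at 1.09, and a summed signal of 16415 in knockout and 11535 in wild-type cells. All 10 were detectable in both channels. Smooth muscle and pericyte markers had a median of 0.13 over 9 genes, from the proteoglycan gene Cspg4 at -0.10 to Tagln at 0.68, with 1 at least 1.5-fold higher and a summed signal of 2379 in knockout and 1854 in wild-type cells. Endothelial markers had a median of -0.04 over 10 genes, from Egfl7 at -0.10 to the TGF-beta coreceptor gene Eng at 0.29, with a summed signal of 1647 in knockout and 1676 in wild-type cells. Pecam1, Emcn and Sox18 passed the detection threshold in the knockout channel only. Knockout signals of these genes, 88.4, 87.7 and 88.4, were close to the threshold of 85.1. Wild-type signals were 43.7, 43.2 and 43.0, against a threshold of 44.3, and the main log2 ratios were 0.01, 0.02 and 0.04. More probes passed the threshold on this array for the knockout dye Cy3 (19263) than for Cy5 (17448). Arterial markers had a median of -0.03 over 6 genes, from Unc5b at -0.12 to Nrp1, a semaphorin and VEGF coreceptor, at 0.36. The part of these cell types in the E14 ratios of Hes1 and Notch1 was not tested.

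Markers of other cell types completed the comparison. In P1 liver the erythroid median was -0.59 over 7 genes, from Car2 at -1.16 to Tfrc at 0.36, with 4 at least 1.5-fold lower, and the macrophage median -0.14 over 8 genes, from Mrc1 at -0.49 to Cd163 at 0.36. The stellate and fibroblast median was -0.12 over 10 genes, from Col3a1 at -1.93 to Lhx2 at 0.26. Hepatoblast and hepatocyte markers had a median of -0.23 over 12 genes, from Ttr at -1.65 to Hnf4a at 0.31, with 4 at least 1.5-fold lower and 0 higher, and a summed signal of 136016 in knockout and 279388 in wild-type liver. In the E14 cells the medians were 0.00 for erythroid markers, from Klf1 at -0.12 to Epor at 0.29, and -0.07 for macrophage markers, of which 3 were detectable in both channels, from Csf1r at -0.14 to Cd68 at 0.03. Lung markers had an E14 median of -0.02 over 7 genes, from Abca3 at -0.07 to Cbr2 at 0.05.

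Hepatoblast and hepatocyte markers had a median of -0.13 over 12 genes in the E14 cells in which Hes1 and Notch1 had their positive ratios, from Ttr at -1.36 to Foxa3 at 0.11. Of the 12, 5 were at least 1.5-fold lower and 0 higher, with a summed signal of 131765 in knockout and 274381 in wild-type cells. Those 5 were the serum protein genes Afp, Alb, Ttr, Ahsg and Apoa1, and all but Afp were also the lower ones in P1 liver. Each of the 5 had whole-number signals on at least 1 array, which on either array were found only among the brightest spots, from 28390 upwards, and Ahsg read 65535 in wild-type P1 liver, the highest signal of the arrays. The ratios of these 5 genes and the sums they dominate are therefore uncertain. The other 7 markers had medians of -0.01 in P1 liver, from Foxa3 at -0.35 to Hnf4a at 0.31, and -0.02 in E14 cells, from Cebpa at -0.15 to Foxa3 at 0.11.

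Of 52 further genes of the pathway, 46 were on the arrays. In the E14 cells 41 were detectable in both channels, with a median of 0.02, and 0 were at least 1.5-fold changed in main values. In P1 liver 43 were, with a median of -0.08, and 1 passed 1.5-fold in each direction. In the authors' values 3 were at least 1.5-fold higher in E14 cells, Ep300, Heyl and Hey2, and 0 lower. In P1 liver 4 were higher in those values, Itch, Hey2, Myc and Mib2, and 5 lower, Heyl, Gata2, Dtx3, Ctbp2 and Dtx1. Among these P1 signals, Hey2 and Mib2 in wild type (51.6 and 51.0) were close to the threshold of 50.5. Heyl and Dtx3 in knockout (88.0 and 87.7) were close to that of 87.0. The shares of all genes are those given above.

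Further target genes differed among themselves. Heyl, a relative of Hey1 that marks mural cells, had main ratios of 0.17 in E14 cells and -0.31 in P1 liver, and authors' values of 1.09 and -2.02, at signals of 109 in knockout and 47.5 in wild-type E14 cells and 88.0 in knockout and 64.4 in wild-type P1 liver. Its P1 knockout signal was close to the threshold of 87.0. Hey2, another Hey gene and a regulator of arterial fate, had authors' values of 0.96 in E14 cells and 0.997 in P1 liver, and main ratios of 0.13 and 0.08. It read 105 in knockout and 47.3 in wild-type E14 cells, and 92.2 in knockout and 51.6 in wild-type P1 liver. The P1 wild-type signal of Hey2 was close to the threshold of 50.5. Hes5, whose promoter is printed above, stood at -0.13 in E14 cells, the lowest of these targets there, and at 0.02 in P1 liver. Gata2, a blood and endothelial transcription factor, was the lowest target in P1 liver at -0.70, and Myc, a growth regulator, the highest at 0.70. Targets of the pathway thus lay on both sides of 0 in P1 liver.

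The proteases that cut the receptors had small ratios. In E14 cells they ran from Adam17, a sheddase, at -0.16 to Adam10, the main receptor sheddase, at 0.26, and in P1 liver from Adam10 at -0.25 to the presenilin gene Psen2 at 0.29. Of these 8 genes 0 were at least 1.5-fold changed on either array, in main values or in the authors' values. Glycosyltransferases that modify the receptors ran from Mfng (-0.01) to Poglut1 (0.19) in E14 cells and from Mfng (-0.21) to Poglut1 (0.40) in P1 liver. Lfng was detectable in P1 liver only.

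Genes of ligand and receptor traffic ran from Dtx2 (-0.23) to Mib1 (0.08) in E14 cells and from Dtx4 (-0.38) to Itch (0.38), a ubiquitin ligase, in P1 liver. Genes of the nuclear complex ran from the coactivator gene Maml1 (-0.19) to the corepressor gene Ctbp2 (0.28) in E14 cells, and from Ctbp2 (-0.58) to the acetyltransferase gene Ep300 (0.10) in P1 liver. Rbpj, the DNA-binding partner of all 4 receptors, stood at 0.03 in E14 cells and at -0.09 in P1 liver. Among further ligands, Dlk1, a relative of the Delta ligands and the antigen of the E14 sort, stood at -0.03 in E14 cells and 0.11 in P1 liver, Dlk2 at -0.05 and 0.03, and Dll3 and Dner were not detectable on either array.

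The levels in the 4 channels, after loess and Aquantile normalisation, differed by gene. These levels are log2 signals with the offset, and the arrays differ in tissue preparation as well as stage, so a step between them cannot be ascribed to age. Hes1 had the widest range, with 6.73 in knockout and 7.05 in wild-type P1 liver, against 8.42 in knockout and 8.04 in wild-type E14 cells. Hes1 was thus lower on the P1 liver array by 1.69 between knockout channels and by 0.99 between wild-type channels, and its order was E14 knockout, E14 wild type, P1 wild type and P1 knockout. The SDs between probes given above are for ratios within an array, so the error of a step between arrays is unknown.

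Dll4, Hey1, Notch1 and Notch4 were highest in wild-type P1 liver. Dll4 stood at 6.69 in knockout and 7.08 in wild-type P1 liver, against 5.95 in knockout and 6.02 in wild-type E14 cells, whose difference is below the probe SD of 0.12. Hey1 stood at 6.41 in knockout and 7.35 in wild-type P1 liver, against 6.51 in knockout and 6.35 in wild-type E14 cells. Its P1 knockout level thus lay among the E14 levels, with steps of at most 0.11 around it. Notch1 stood at 7.67 in knockout and 8.04 in wild-type P1 liver, against 7.50 and 7.15 in knockout and wild-type E14 cells.

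Notch4 stood at 6.64 in knockout and 6.87 in wild-type P1 liver, against 6.11 and 6.06 in knockout and wild-type E14 cells. Notch3, Jag2 and Dll1 were flat by comparison, with ranges over the 4 channels of 0.16, 0.25 and 0.22. The largest step between their neighbouring levels was that of Jag2 in wild-type P1 liver, at 6.30, above the next level of 6.07.

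**Figure D4:**
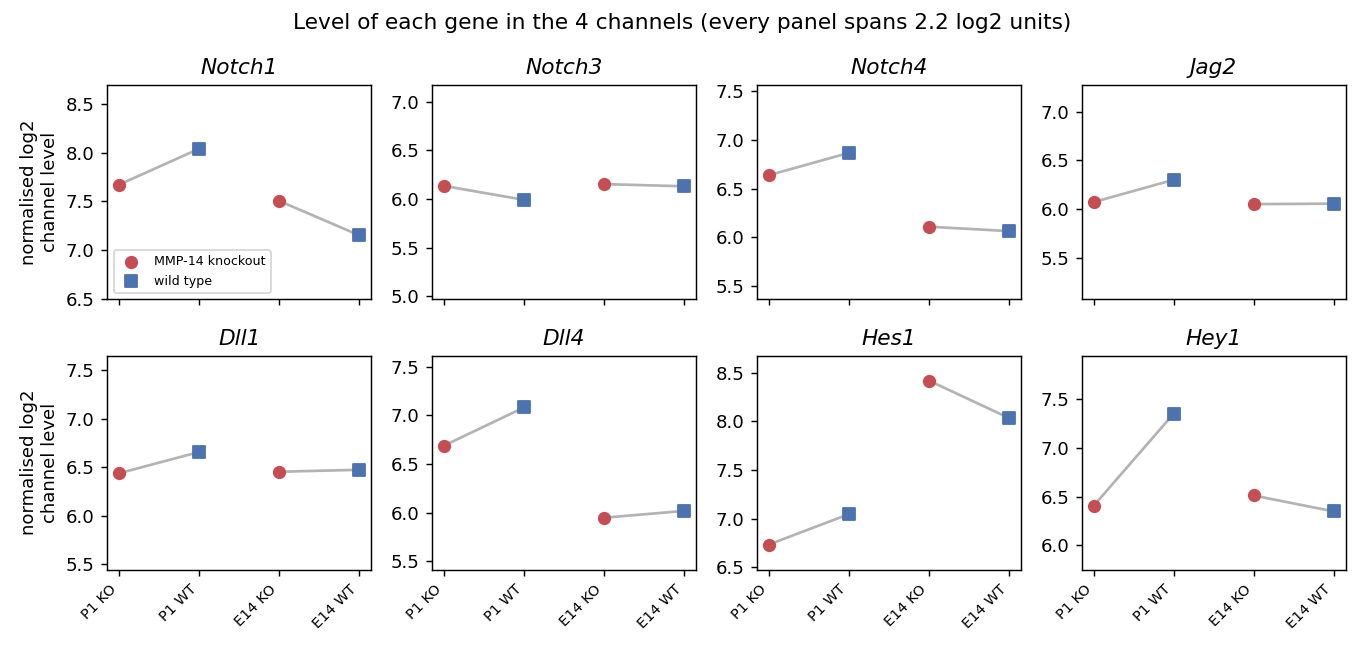
Normalised log2 channel level (vertical axis) of the 8 genes detectable in all 4 channels, in knockout (red circles) and wild-type (blue squares) P1 liver and E14 Dlk+ cells, with grey lines joining the channels of an array. Hey1 has its high point in wild-type P1 liver at 7.35, with the other 3 levels between 6.35 and 6.51, while Hes1 is higher in both E14 channels.

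Among 12005 genes detectable in all 4 channels, the pattern of levels most like that of Hey1 was that of Mcam. The Euclidean distance between their levels, centred on their own mean, was 0.09, and S100a14 (0.10) and Cdc42ep3 (0.12) followed. The nearest to Hes1 were Alcam (0.05), Capns1 (0.08) and Slc50a1 (0.12). The nearest to Dll4 were Plekhb2 (0.03), Cd47 (0.04) and Fam241a (0.05), and to Notch1 Kdm6a (0.03), Mylk3 (0.03) and Fbxo39 (0.05). The measure rests on 4 values from 2 arrays, and with so many genes some lie close to any pattern.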

How the data were processed

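Two-channel intensities were deposited for 2 arrays, each with 27456 spots and 23473 gene probes, and these intensities are spot medians that were not normalised, per the file headers. The authors' deposited log2 values matched the blank-subtracted channel ratio centred on the array median, knockout over wild type, with largest differences of 0.266 (E14) and 0.113 (P1) and a correlation of 1.00 across probes. Their column medians were 7.21e-07 and -2.74e-05, so scale, centring and direction are known. RNA was amplified with an amino allyl kit, per the labels' protocols. Main values came from limma 3.58.1 in R 4.3.3: normexp with an offset of 50 on signals without local background, which followed the spot (Spearman correlation 0.90 to 0.97), loess with control spots at weight 0, and averaging of probes per gene. Blank thresholds used 2736 blank spots with 5% trimmed at each end. The normalisation was also run on simulated data. There only probes more than 10 blank SDs above the blank mean in the wild type were changed, all by more than 1.5-fold. It therefore does not cover dimmer genes or smaller changes. Symbols came from the platform annotation (16631 of 23473 probes had 1 symbol, 0 several), updated with RefSeq names of GRCm38.p6. The members, the 52 pathway genes and the marker lists were chosen with earlier results of these data known. Named were all members, the highest and lowest gene of each list and role, undetectable defining markers, and pathway genes at least 1.5-fold changed in main values. Other genes given with a value, such as Rbpj, Hey2, Sox9 and Spp1, were chosen after their values were seen. The files name no genome build, so coordinates are given for RefSeq promoters only. On the E14 Dlk+ array 4 probes with a scanner flag were dropped. Levels were normalised over both arrays with Aquantile. The number of arrays limits the precision. Alternatives covered background, offset, centring, detection and probe choice.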

Additional observations from a re-analysis of the deposited data

Results flagged for a closer look

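The log2 ratio of 4 members was above 0 on the E14 Dlk+ array and below 0 on the P1 liver array. The P1 ratio minus the E14 ratio was -1.11 for Hey1 (-0.95 and 0.16 on the P1 and E14 arrays), -0.72 for Notch1 (-0.37 and 0.35), -0.70 for Hes1 (-0.31 and 0.38) and -0.27 for Notch4 (-0.23 and 0.04). In the authors' deposited values the same differences were -2.46, -1.02, -1.13 and -1.05. This order of signs held in 11 of 11 settings for Hey1, Notch1 and Hes1 and in 8 of 11 for Notch4, whose signs were turned round in 2 settings, those with the local background. Signs are counted against 0 and not against the bulk of genes. Under median centring the E14 ratio of Hey1 was 0.18, below the E14 median of 0.28 for all genes. The 11 settings include the main one and those for detection and probe choice, which could not change the ratio of a detectable member. There was 1 array per tissue, so none of these differences was tested, and the arrays also differ in cell sorting, stage and the lung markers of the wild-type P1 channel.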

How the results depend on the processing

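A value was taken as moved when it shifted by more than the SD between probes of a gene, or a count by more than 1.5 times. The E14 median of the members (0.04) moved to 0.26 with the local background subtracted, 0.28 with the blank mean subtracted, 0.19 with an offset of 0 and 0.43 in the authors' values. The E14 count at least 1.5-fold higher (0) became 3 with the local background subtracted and 2 under median centring, and the count lower (0) became 1 with either the local background or the blank mean subtracted. The 2 under median centring, Hes1 (0.93) and Notch1 (0.70), are counted from 0, while the E14 median of all genes was 0.28 there. The P1 median (-0.27) moved to -0.57 with the blank mean subtracted, -0.52 with an offset of 0 and -0.68 in the authors' values. The P1 count lower (1) became 4 with either the local background or the blank mean subtracted, 3 with an offset of 0 and 6 in the authors' values, and the count higher (0) became 1 with the local background or the blank mean subtracted and in the authors' values. Of 60 alternative medians and counts, 42 stayed within these limits, and of 170 member ratios 105 did. Part of that was fixed in advance, because each member had 1 probe, so the probe choice could change no member result. The settings for detection decide only which genes count, so they could not change a member ratio either. The 1 ratio past 1.5-fold in main values, Hey1 in P1 liver, was past it in all 11 settings, from -2.30 to -0.65. Of the 17 member ratios 6 changed sign, counted against 0, in at least 1 setting. They were E14 Notch3, Notch4, Jag1, Jag2 and Dll1, and P1 Notch4. The cause of the shifts was not tested. No paired analysis was possible because each comparison had 1 array, and no array could be left out. Notch2, Notch3, Jag1 and Jag2 on both arrays and E14 Notch4 and Dll4 lay within 10 blank SDs of the blank mean in at least 1 channel.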
